A study of Mus musculus with 16 samples.

Results

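OCT4 peaks in gene deserts were the OCT4-bound regions that lay far from any protein-coding gene. A peak was counted here when its midpoint was outside every protein-coding gene body of the GENCODE M21 annotation, over 1 kb from any annotated transcript start, and over 100 kb from the nearest protein-coding transcript start, and when under 50% of its bases were repeat-masked in the mm10 mouse genome. Of 26704 peaks in the merged list, 14376 had a midpoint outside protein-coding gene bodies, 12539 of these were over 1 kb from any start and 4010 of these were over 100 kb from a protein-coding start. The repeat limit removed 1041, which left 2969 desert peaks, or 11.1% of the list (95% Wilson interval 10.7 to 11.5%). The rule used position and repeat content and no measure of binding.

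The study asked how OCT4 and SOX2 shape the chromatin of mouse embryonic stem (ES) cells, and its series held 16 ChIP-seq libraries in 8 groups of 2 replicates. The 4 OCT4 libraries came from 2TS22C cells, an ES cell line in which a doxycycline-repressible (Tet-Off) Sox2 transgene was the only active source of SOX2. The cells were grown in serum with 2i and LIF, and were either left without doxycycline (SOX2ON, 2 replicates) or given 1 µg/ml doxycycline for 26 h (SOX2OFF, 2 replicates). All results rest on this 1 cell line, and its identity could not be checked by markers because the list holds coordinates only. The deposited list merged peaks without heights, depths or library columns, and the sources used here do not state which of the 4 libraries entered it. SOX2ON and SOX2OFF could therefore not be compared, and the peaks, which are not replicates of a condition, give counting error only.

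OCT4, encoded by Pou5f1, is a POU-domain transcription factor that binds an octamer sequence, and SOX2 is an HMG-box factor that binds a short SOX core. In ES cells both can sit side by side on a composite OCT4::SOX2 element. Enhancers bound in this way are known to lie at large distances from the genes they act on, and long gene-free intervals are often found beside genes that encode developmental regulators. The composite was searched as CATTGTT followed directly by ATGCAAAT, 15 bp on either strand with at most 3 mismatches, in the central 200 bp of each peak.

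Printed here, to show what such sites look like, are the central 200 bp of 11 desert peaks, read from the plus strand of the GRCm38 (mm10) reference, with the best composite match in capitals. The windows beside Nr5a2 and Tbx3 were the 2 with a composite match among the desert peaks nearest to a list of pluripotency genes. The other 9 had the composite with 1 mismatch and were among the 10 such peaks that lay farthest from a protein-coding start. Each window is named after the gene of the nearest protein-coding start. The matches beside Tbx3, Epha7, Trpc7, Shox2 and Zfp536 were on the minus strand, so their capitals read as the reverse complement of the composite, and the others were on the plus strand.

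Tbx3 peak window, chr5:119304712-119304911: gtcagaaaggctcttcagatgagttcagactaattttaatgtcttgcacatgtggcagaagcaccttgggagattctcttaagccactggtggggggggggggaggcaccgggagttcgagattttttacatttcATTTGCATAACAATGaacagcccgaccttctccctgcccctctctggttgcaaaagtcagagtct
Nr5a2 peak window, chr1:137378642-137378841: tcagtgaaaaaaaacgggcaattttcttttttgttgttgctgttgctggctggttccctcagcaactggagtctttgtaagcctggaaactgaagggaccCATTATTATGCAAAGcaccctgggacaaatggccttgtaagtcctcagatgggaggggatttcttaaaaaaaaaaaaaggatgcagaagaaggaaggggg
Tbl1xr1 peak window, chr3:23457886-23458085: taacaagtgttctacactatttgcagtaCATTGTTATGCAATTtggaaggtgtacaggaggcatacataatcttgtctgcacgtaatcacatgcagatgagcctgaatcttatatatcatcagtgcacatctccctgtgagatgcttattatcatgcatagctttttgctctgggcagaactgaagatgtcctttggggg
Epha7 peak window, chr4:28300210-28300409: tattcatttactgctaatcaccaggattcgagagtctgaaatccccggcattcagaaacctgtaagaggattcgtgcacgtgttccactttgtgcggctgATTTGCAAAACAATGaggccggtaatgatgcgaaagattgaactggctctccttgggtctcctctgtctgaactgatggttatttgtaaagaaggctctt
Trpc7 peak window, chr13:57362627-57362826: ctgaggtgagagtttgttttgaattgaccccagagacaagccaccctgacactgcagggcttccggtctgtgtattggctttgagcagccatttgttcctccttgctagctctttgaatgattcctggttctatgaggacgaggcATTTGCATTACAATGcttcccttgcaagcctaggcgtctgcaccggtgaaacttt
Vrk1 peak window, chr12:106479701-106479900: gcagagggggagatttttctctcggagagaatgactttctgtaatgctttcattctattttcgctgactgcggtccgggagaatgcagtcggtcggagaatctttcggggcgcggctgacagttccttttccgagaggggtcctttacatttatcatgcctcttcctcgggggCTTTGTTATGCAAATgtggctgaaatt
Slc4a3 peak window, chr1:75997195-75997394: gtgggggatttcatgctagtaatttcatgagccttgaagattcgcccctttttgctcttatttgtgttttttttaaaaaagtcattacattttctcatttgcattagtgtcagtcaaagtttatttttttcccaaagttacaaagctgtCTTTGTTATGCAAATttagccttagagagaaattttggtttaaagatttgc
B3galt2 peak window, chr1:143311506-143311705: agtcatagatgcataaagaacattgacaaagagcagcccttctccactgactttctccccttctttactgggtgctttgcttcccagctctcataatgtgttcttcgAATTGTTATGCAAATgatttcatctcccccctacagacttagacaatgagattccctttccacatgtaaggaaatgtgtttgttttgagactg
Shox2 peak window, chr3:66687203-66687402: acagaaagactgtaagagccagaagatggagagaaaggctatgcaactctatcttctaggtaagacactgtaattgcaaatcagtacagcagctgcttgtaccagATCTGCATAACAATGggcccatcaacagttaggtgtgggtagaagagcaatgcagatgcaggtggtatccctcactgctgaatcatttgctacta
Zfp536 peak window, chr7:37192680-37192879: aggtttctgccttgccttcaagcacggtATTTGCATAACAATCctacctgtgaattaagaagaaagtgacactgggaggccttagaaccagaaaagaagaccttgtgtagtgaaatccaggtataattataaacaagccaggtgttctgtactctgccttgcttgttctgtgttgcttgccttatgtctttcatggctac
Cenpw peak window, chr10:29932359-29932558: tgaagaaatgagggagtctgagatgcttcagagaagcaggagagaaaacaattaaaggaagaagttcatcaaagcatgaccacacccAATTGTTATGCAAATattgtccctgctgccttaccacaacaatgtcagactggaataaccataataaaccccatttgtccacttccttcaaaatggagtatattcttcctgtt

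The Tbx3 window held the single exact composite in the central windows of the 2969 desert peaks, CATTGTTATGCAAAT, at chr5:119304847-119304861 on the minus strand. Its peak (119304631 to 119304991, 361 bp) was 365.9 kb upstream of Tbx3, a T-box factor of the naive pluripotency network. The Nr5a2 window read CATTATTATGCAAAG on the plus strand at chr1:137378742-137378756, with 2 mismatches. It was 418.3 kb upstream of Nr5a2, which encodes an orphan nuclear receptor of ES cells. The Tbl1xr1 window had its match 1.25 Mb downstream of the gene start, the greatest distance among the 18 desert peaks with at most 1 mismatch. These 18 peaks lay between 111.6 kb (Sesn3) and that distance, on 12 chromosomes, and 1 of them, beside Bcl2l11, was inside a long non-coding RNA (lncRNA) gene, Gm14005.

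Desert peaks became sparser with distance from genes. Sequence that met the position rule came to 836.0 Mb, and held 3.55 desert peaks per Mb. Intergenic sequence at 1 to 100 kb from a protein-coding start held 6699 peaks in 709.9 Mb, or 9.44 per Mb, which was 2.66 times the desert density. By distance, the density was 5.62 per Mb at 100 to 200 kb (1373 peaks), 3.6 at 200 to 500 kb (1217 peaks), 1.71 at 500 to 1000 kb (304 peaks) and 0.989 beyond 1000 kb (75 peaks). Nearer to genes the density was 11.7 per Mb at 1 to 10 kb and 7.56 at 50 to 100 kb. On the autosomes alone the density was 8.64 per Mb at 50 to 100 kb, 6.55 at 100 to 200 kb and 1.01 beyond 1000 kb. Peaks that cluster are not independent counts, so the densities were not tested.

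**Figure D1:**
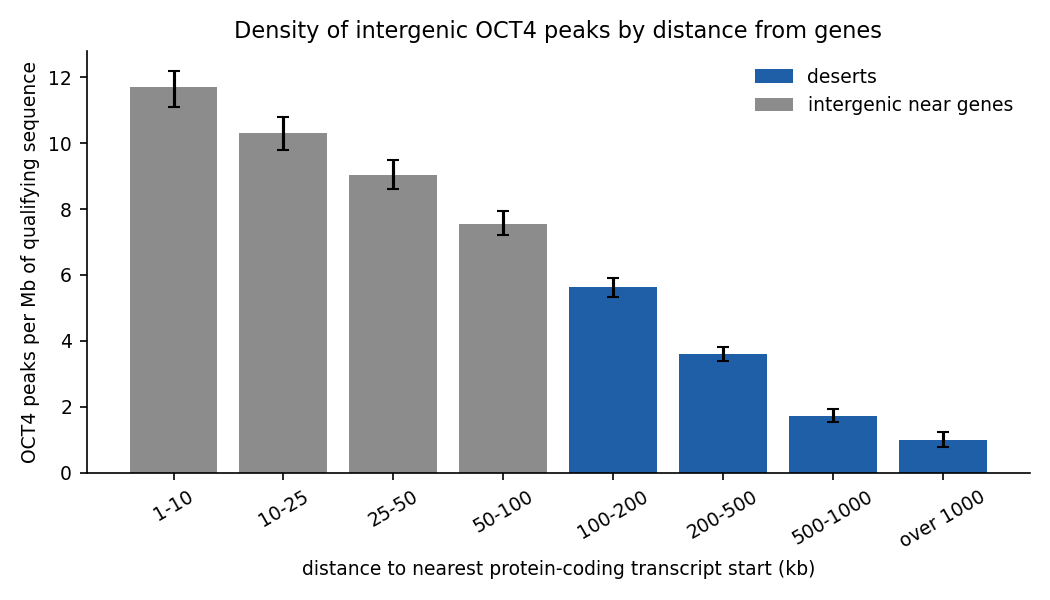
Intergenic OCT4 peaks per Mb of qualifying sequence (vertical axis) by distance to the nearest protein-coding transcript start in kb (horizontal axis). Bars are densities, blue in deserts and grey nearer to genes, and error bars are 95% Poisson intervals of the counts; the bars fall from 11.7 at 1 to 10 kb to 0.989 beyond 1000 kb.

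The median desert peak was 213.9 kb from a protein-coding start (interquartile range 143.5 to 356.6 kb), and 1596 of the 2969 (53.8%) were over 200 kb away. Only 4 lay beyond 2000 kb. The 5 farthest were 3 peaks downstream of Pcdh9, a protocadherin gene, at 2.65, 2.35 and 2.23 Mb, 1 peak 2.25 Mb downstream of Cntnap5b and 1 peak 1.97 Mb upstream of Celf4, which encodes an RNA-binding protein. The farthest, at chr14:91230898-91231179, held the composite CATTGTAATGCTTAT with 3 mismatches, and those at 2.35 and 2.25 Mb held an exact octamer. Of all desert peaks, 1573 (53.0%) were upstream of the nearest start. Within 10 kb inside the 100 kb limit lay 220 peaks, 10.5% of them with a composite, and within 10 kb outside it lay 248, 9.68% with one. Less than 5 percentage points inside the repeat limit, 14 of 87 peaks had a composite, and as close outside it 3 of 82.

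Sequence outside protein-coding genes and over 100 kb from a protein-coding start formed 2026 stretches with a median of 191.8 kb of known bases. These stretches came to 853.7 Mb, more than the 836.0 Mb above, because they include the sequence within 1 kb of other transcript starts. Stretches of at least 500 kb numbered 535 and held 1571 desert peaks (52.9%), and the 242 of at least 1 Mb held 846 (28.5%). Within lncRNA genes lay 419 desert peaks (14.1%, 95% Wilson interval 12.9 to 15.4%), 21 of them in an exon and 398 in an intron, and 2550 were outside any lncRNA or protein-coding gene. Of intergenic peaks near genes, 783 of 6699 (11.7%) were in lncRNA genes (odds ratio 1.24, 95% interval 1.09 to 1.41, two-sided Fisher's exact test, p = 0.00105). How much of the sequence itself lies in lncRNA genes was not set beside these shares, so they do not show a preference for such genes. The same holds for exons against introns, and the rule leaves out the exon sequence within 1 kb of a transcript start. The lncRNA gene with the most desert peaks was Pvt1, the neighbour of Myc, with 7. The composite was present in 44 of the 419 peaks inside lncRNA genes (10.5%) and in 303 of the 2550 outside (11.9%), a difference that did not pass the test (odds ratio 0.87, 95% interval 0.623 to 1.22, Fisher's exact test, p = 0.46).

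Desert peaks carried the OCT4 and SOX2 motifs far more often than the sequence around them. Flanking windows of the same width were placed 5 kb to each side of a desert peak, and 4658 of 5938 met no peak, held no unknown base and were under 50% repeat-masked. The composite was found in 347 of 2969 desert peaks (11.7%, 10.6 to 12.9%) and in 57 of the 4658 flanking windows (1.22%, 0.946 to 1.58%), an odds ratio of 10.7 (95% interval 8.04 to 14.2). The octamer ATGCAAAT was found in 291 desert peaks (9.80%) against 1.33% of windows, an odds ratio of 8.06 (6.10 to 10.6). The SOX core, CCATTGT or CCTTTGT, was found in 715 desert peaks (24.1%) against 7.58% (odds ratio 3.87, 3.37 to 4.44). The p-values of Fisher's exact test, adjusted over the 14 motifs searched, were 2.7e-88, 1.9e-65 and 6.0e-88. At least 1 of the 3 motifs was present in 1151 desert peaks (38.8%) and in 9.77% of flanking windows, so that 1818 desert peaks (61.2%) had none of them at these settings. An octamer without a composite was present in 201 desert peaks (6.77%), and a SOX core without either in 603 (20.3%).

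Of the 14 motifs, 10 were more frequent in desert peaks than in flanking windows and none was less frequent. Besides the 3 above, these were ZIC (CCTGCTG, 10.8% against 4.32%), TCF/LEF (CTTTGAT, 7.21% against 3.71%), AP-2 (GCCNNNGGC, 4.78% against 2.51%), KLF (CCACACCC, 2.69% against 0.966%), TEAD (ACATTCCA, 1.92% against 1.2%), ESRRB (TCAAGGTCA, 1.68% against 0.429%) and STAT (TTCCNGGAA, 1.11% against 0.537%), with adjusted p from 9.4e-27 (ZIC) to 0.0206 (TEAD). KLF and ESRRB proteins and STAT3, the effector of LIF, are factors of naive ES cells, whereas AP-2 factors are known for trophectoderm and neural crest. The motifs of GATA factors (AGATAAG, 3.17% against 3.13%, odds ratio 1.01, 0.776 to 1.31), of AP-1 (TGANTCA, adjusted p = 0.0576) and of CTCF (CCANNAG followed by NNGGC, adjusted p = 0.175) did not pass Fisher's exact test. The palindrome on which OCT factors can pair (ATGCAT joined to ATGCAT, at most 1 mismatch) was in 9 desert peaks and in 14 windows (0.303% against 0.301%, odds ratio 1.01, 0.436 to 2.33). Desert peaks had a mean GC content of 44.8% (SD 5.03, n = 2969 peaks) and the windows 41.7% (SD 7.17, n = 4658). Within strata of GC content the odds ratio was 15 for the composite, 10.3 for the octamer and 3.73 for the SOX core, and by the Mantel-Haenszel chi-square test STAT lost its call (odds ratio 1.68, adjusted p = 0.0842) and AP-1 gained one (1.24, adjusted p = 0.0347).

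**Figure D2:**
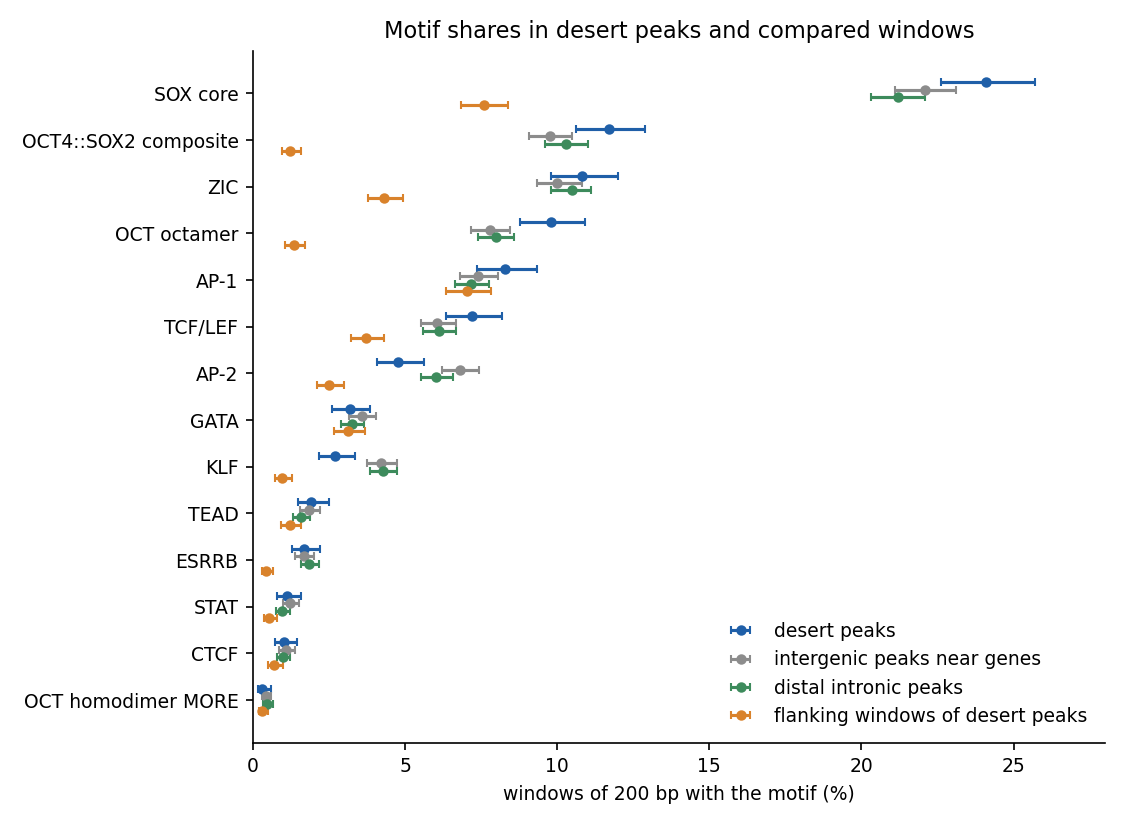
Share of 200 bp windows with each of 14 motifs in % (horizontal axis), for desert peaks (blue), intergenic peaks near genes (grey), distal intronic peaks (green) and flanking windows of desert peaks (orange). Points are shares with 95% Wilson intervals; the blue point stands clear of the orange one for the SOX core (24.1% against 7.58%), the composite (11.7% against 1.22%) and the octamer (9.80% against 1.33%), and not for GATA (3.17% against 3.13%).

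Within the central 200 bp, the median distance of the composite matches from the midpoint was 34.5 bp, and 218 of 347 (62.8%) were within 50 bp. Of all positions a match can take in such a window, 53.8% are within 50 bp. The share was 45.6% for the 57 matches in flanking windows, 66.8% for intergenic peaks near genes and 67.6% for distal intronic peaks, and these shares were not tested. Over the whole width of the peaks, 455 desert peaks had 1 composite match and 19 had 2. In the central 200 bp exact copies were rare, with 1 peak at 0 mismatches, 17 at 1, 60 at 2 and 269 at 3. No flanking window had a match with 0 or 1 mismatch (0 of 4658, which allows a share of up to 0.0644%, counting error only), against 18 desert peaks (0.606%).

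**Figure D3:**
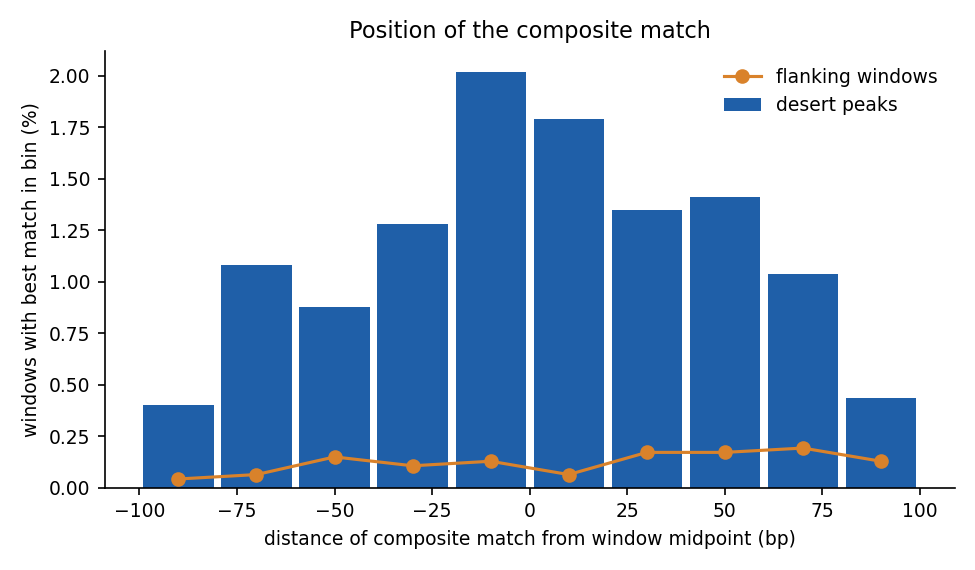
Distance of the best composite match from the window midpoint in bp (horizontal axis, bins of 20 bp) and the share of windows with their best match in that bin in % (vertical axis), for desert peaks (bars) and flanking windows (line). The bars are highest in the 2 central bins, 2.02% and 1.79%, and the line stays at or below 0.193%.

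Within the 347 matches, the bases of the OCT part were kept more often than those of the SOX part. Positions are counted from 1 at the 5′ end of the composite, with 7 SOX and 8 OCT bases. A match had on average 1.16 mismatches among the OCT bases and 1.56 among the SOX bases, and the OCT part was exact in 82 (23.6%) and the SOX part in 39 (11.2%). The T at position 4 was kept in 94.2% and the T at position 9 in 93.4%, whereas the C at position 1 and the G at position 5 were each kept in 69.5%. Among intergenic peaks near genes the OCT part was exact in 107 of 654 matches (16.4%). By position, no base differed between desert peaks and intergenic peaks near genes after adjustment over 15 positions. The smallest adjusted p was 0.0760, for the A at position 12, kept in 85.9% of desert matches and 78.6% of the others (Fisher's exact test). A limit of 3 mismatches shapes these shares.

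Compared with peaks nearer to genes, desert peaks carried the composite and the octamer slightly more often. The composite was in 11.7% of desert peaks and in 654 of 6699 intergenic peaks near genes (9.76%, odds ratio 1.22, 1.07 to 1.40, Fisher's exact test, adjusted p = 0.0166). The octamer was in 9.80% against 7.78% (odds ratio 1.29, 1.11 to 1.5, exact test, adjusted p = 0.00517). KLF (2.69% against 4.21%, odds ratio 0.630, 0.490 to 0.811) and AP-2 (4.78% against 6.79%, odds ratio 0.689, 0.568 to 0.837) were less frequent in desert peaks, with adjusted p of 0.00170 and 0.00165 in the same exact test. The SOX core did not pass (24.1% against 22.1%, odds ratio 1.12, 1.01 to 1.24, exact test, adjusted p = 0.0805), and nor did the other 9 motifs. Desert peaks also had less GC, in that 1206 (40.6%) reached the median GC of all peaks, 46.0%, against 3589 (53.6%) of those near genes (odds ratio 0.593, 0.543 to 0.647, exact test, p = 5.3e-32). Within GC strata, by the Mantel-Haenszel chi-square test, the composite call was lost (odds ratio 1.12, 0.971 to 1.28, adjusted p = 0.232), as was that of AP-2 (0.840, adjusted p = 0.232). In the same chi-square test the calls for the octamer (1.26, adjusted p = 0.0253) and KLF (0.694, adjusted p = 0.0271) held, and ZIC became more frequent in desert peaks (1.24, adjusted p = 0.0253).

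Among the closest composites the odds ratio was higher, though the difference between limits was not tested. A match with at most 1 mismatch was in 18 desert peaks (0.606%) and in 14 of 6699 intergenic peaks near genes (0.209%), an odds ratio of 2.91 (1.45 to 5.86, Fisher's exact test, adjusted p = 0.0113). That limit was chosen after the counts were seen, and it was not run within GC strata. With at most 2 mismatches the odds ratio was 1.35 and the call was lost (exact test, adjusted p = 0.0945). Against 7854 distal intronic peaks, which lie in introns over 1 kb from any start, the composite did not pass (11.7% against 10.3%, odds ratio 1.16, 1.01 to 1.32, Fisher's exact test, adjusted p = 0.0906). It passed there for desert peaks over 200 kb from a gene (odds ratio 1.34, exact test without GC strata, adjusted p = 0.00380). For all desert peaks within GC strata, the composite did not pass (odds ratio 1.08, 0.946 to 1.24, Mantel-Haenszel chi-square test, adjusted p = 0.462). The octamer (1.25, adjusted p = 0.0119) and the SOX core (1.18, adjusted p = 0.00800) were more frequent in desert than in intronic peaks by the same exact test, and KLF (0.622, adjusted p = 0.00145) and AP-2 (0.784, adjusted p = 0.0475) less frequent. Within GC strata the AP-2 call against intronic peaks was lost (odds ratio 0.906, Mantel-Haenszel chi-square test, adjusted p = 0.490) and the other 3 held.

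With distance from genes the composite share was 9.83% at 100 to 200 kb, 13.1% at 200 to 500 kb, 13.5% at 500 to 1000 kb and 16% beyond 1000 kb, where 12 of 75 peaks had one (9.40 to 25.9%). Over the same bins the mean GC content went from 45.6% (SD 5.08) to 42.1% (SD 3.41), and its part in the rise was not tested. Desert peaks over 500 kb from a gene had a composite in 53 of 379 (14%) and those at 100 to 200 kb in 135 of 1373 (9.83%), an odds ratio of 1.49 (1.06 to 2.1) that did not pass after adjustment over the 3 motifs compared (Fisher's exact test, p = 0.0243, adjusted p = 0.0729). The intervals for the octamer (10.8% against 8.96%, odds ratio 1.23, 0.849 to 1.79) and the SOX core (23.2% against 24.0%, 0.956, 0.731 to 1.25) included 1.

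**Figure D4:**
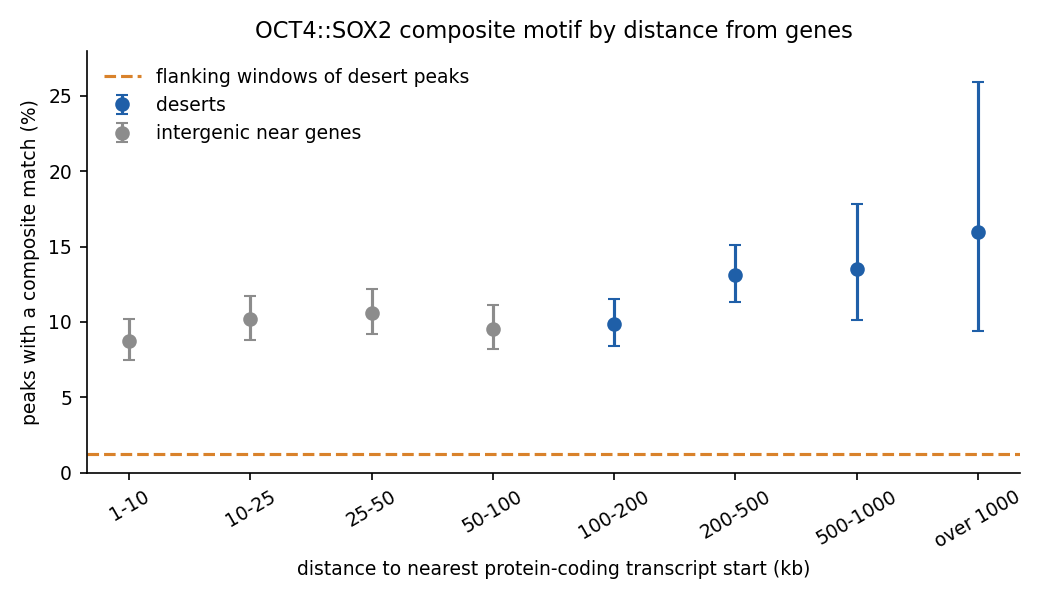
Share of peaks with a composite match in the central 200 bp in % (vertical axis) by distance to the nearest protein-coding transcript start in kb (horizontal axis). Points are shares with 95% Wilson intervals, blue for deserts and grey for intergenic peaks near genes, and the dashed line is the share in flanking windows of desert peaks (1.22%); the blue points go from 9.83% to 16%, the last with the widest interval.

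Every 8-mer was then counted in the same windows, each joined to its reverse complement. Of 32896 8-mers, 742 (2.26%) were present in more desert peaks than flanking windows and 752 (2.29%) in fewer (Fisher's exact test, Benjamini-Hochberg adjusted p under 0.05), and 2573 and 2490 passed at an unadjusted p under 0.05. Among those in at least 1% of desert peaks, the largest ratio was that of the octamer itself, ATGCAAAT (7.36-fold, exact test, adjusted p = 1.3e-61). It was followed by ATGCTAAT, an octamer with 1 changed base, in 183 desert peaks (6.16% against 0.988%, 6.24-fold, exact test, adjusted p = 1.2e-33). The next were GCATAACA, which spans the SOX and OCT parts (2.69% against 0.494%, 5.46-fold), TATGCAAA (6.84% against 1.31%, 5.22-fold) and CATTTGCA (6.5% against 1.25%, 5.22-fold). The 8-mers lower in desert peaks were led by A- and T-rich words such as AGATATAT (0.0337% against 1.09%). Against intergenic peaks near genes, 2 8-mers (0.00608%) were present in more desert peaks and 3 (0.00912%) in fewer, with 1003 and 910 at an unadjusted p under 0.05. The 2 were GAAATTAC (1.31% against 0.433%, 3.03-fold, exact test, adjusted p = 0.0489) and ATGAACAG (1.62% against 0.567%, 2.85-fold, adjusted p = 0.0163), and among the 3 was CCACGCCC (0.404% against 1.57%, adjusted p = 0.00552), a GC-rich word of the kind KLF and SP factors bind. With desert peaks over 200 kb from a gene, none of these 5 was called.

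No difference in width from intergenic peaks near genes passed the test. The median width of desert peaks was 360.0 bp (interquartile range 276.0 to 465.0 bp, range 203 to 1367 bp), and that of intergenic peaks near genes was 359.0 bp. At or above the median width of all peaks, 352.0 bp, were 52.3% of desert peaks and 51.8% of those near genes (odds ratio 1.02, 0.937 to 1.11, Fisher's exact test, p = 0.627). Against distal intronic peaks the share was higher in deserts (52.3% against 49.1%, odds ratio 1.14, 1.04 to 1.24, exact test, p = 0.00295). The 3 widest desert peaks, of 1367, 1289 and 1264 bp, were nearest to Spats2l, Slc24a2 and Csmd3, and none had a composite in its centre. The composite share was 8.98% in desert peaks of up to 276 bp, 11.2% from 277 to 360 bp, 15.5% from 361 to 465 bp and 11.1% in wider ones. The central windows of desert peaks held on average 1.93 CpG sites (SD 2.24), against 2.68 (SD 2.99) near genes and 1.59 (SD 1.63) in flanking windows.

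Desert peaks had a close neighbour less often than intergenic peaks near genes, in sequence with fewer peaks of their own class per Mb (3.55 against 9.44). A neighbour could be any peak of the list, also one in a gene, which these densities do not count. Whether they cluster more or less than these densities alone would give was not tested. A neighbouring peak of any kind lay within 10 kb of 836 desert peaks (28.2%) and of 2598 peaks near genes (38.8%, odds ratio 0.619, 0.563 to 0.680, Fisher's exact test, p = 3.2e-24). The median distance to the nearest peak was 29.5 kb in deserts and 14.6 kb near genes. Joined at 10 kb, the desert peaks formed 2606 units, of which 2294 were single peaks, 268 were pairs and 44 held 3 or more. The largest unit had 5 peaks in 14.9 kb (chr5:118434830-118449710), beside Med13l, which encodes a Mediator subunit. None of its peaks had a composite, and the same was true of the 5 units of 4 peaks. Over all desert peaks the share was 11.7%, and the difference was not tested. Units of 3 peaks beside Hs6st1 and Nr5a2 each had 1 peak with a composite.

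The peaks were spread over many stretches. Of 2026 stretches, 1031 held no desert peak, 370 held 1 and 625 held 2 or more. The 201 stretches with 5 or more held 48.6% of all desert peaks. Among stretches of at least 1 Mb, 197 of 242 (81.4%) held a peak. The longest was 4.47 Mb on chromosome 8 between Tenm3 and Aga, and it held 6. The longest without a desert peak was 3.58 Mb on chromosome 5, between Pcdh7 and G6pd2.

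The 2 stretches with the most desert peaks had 20 each. On chromosome 13, 744.8 kb between Cd83 and Jarid2 (43884776 to 44629534) held 26.9 peaks per Mb, 9 of the 20 inside lncRNA genes. Jarid2, a cofactor of Polycomb repressive complex 2, was the nearest gene of 15 of them, all upstream of its start. On chromosome 1, 1.02 Mb between Plekhb2 and Hs6st1 (34951838 to 35968399) held 19.7 per Mb with none in a lncRNA gene. Each stretch had 1 peak with a composite. In the 636.6 kb between 1810013L24Rik and the NMDA receptor gene Grin2a, none of 15 had one, where the share over all desert peaks was 11.7%. The 822.3 kb between Kif2a and Ndufaf2 had 16 peaks, 4 of them with a composite. Of the 16, 3 lay inside Zswim6, which the M21 annotation lists as a processed transcript and not as protein-coding. These 3 count as desert peaks, and as peaks in a lncRNA gene, only under that listing. The extent of this stretch rests on it too. The remaining stretches of the 10 with the most peaks had 13 to 16 each. They lay between Slc4a3 and Epha4 (16), Celf4 and Pik3c3 (14, over 4.32 Mb), Adamts9 and Magi1 (13), Med13l and Tbx3 (13), Tmem132b and Tmem132c (13), and Auts2 and Castor2 (13).

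**Figure D5:**
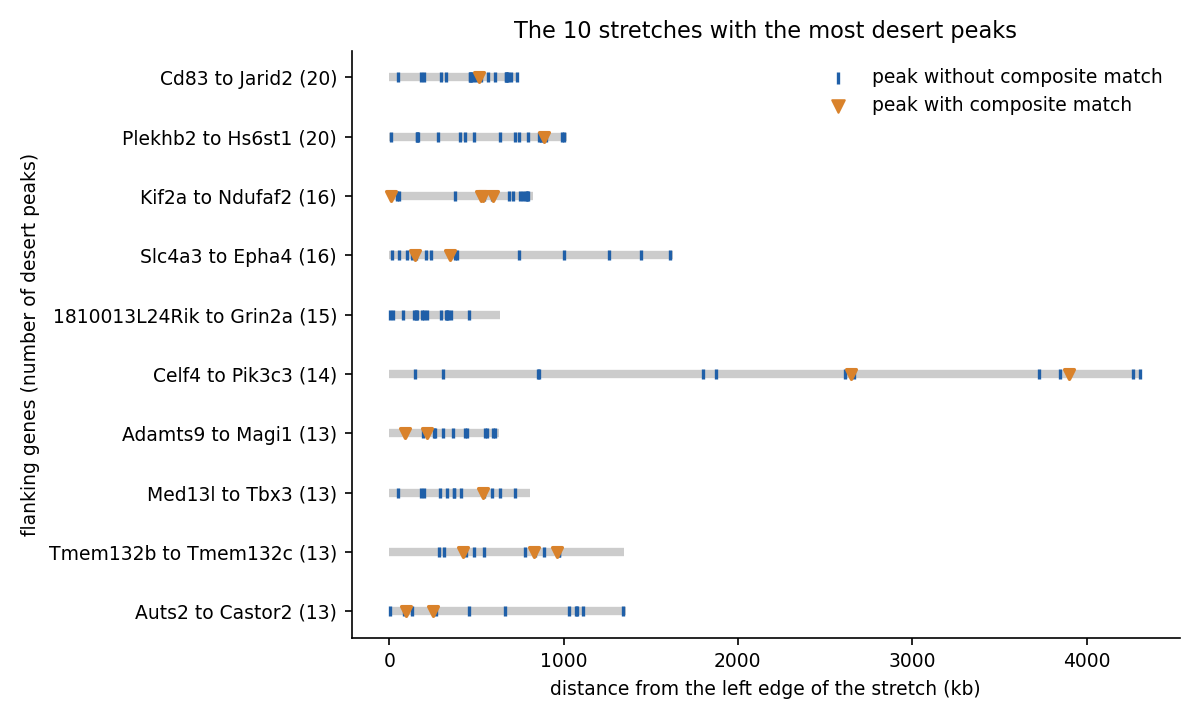
Desert peaks in the 10 stretches that hold the most, as distance in kb from the left edge of each stretch (horizontal axis), with the flanking protein-coding genes and the number of peaks (vertical axis). Grey lines are the stretches, blue ticks are peaks without and orange triangles peaks with a composite match; the 20 peaks between Cd83 and Jarid2 lie within 744.8 kb and the 14 between Celf4 and Pik3c3 within 4319 kb.

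By chromosome, autosomes had 4.13 ± 0.951 desert peaks per Mb of qualifying sequence (SD, n = 19), with the lowest density, 2.79, on chromosome 14 and the highest, 6.32, on chromosome 13. On X there were 72 desert peaks at 1.26 per Mb, below every autosome, and the autosome mean was 3.27 times that value. Counted over bases that were not repeat-masked, X had 2.70 per Mb against 6.66 ± 1.40 (SD, n = 19). The Y chromosome had no desert peak in 57.4 Mb, of which 1.76 Mb was not repeat-masked.

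The desert peaks were assigned to 1297 genes by nearest protein-coding start, with 1 peak each for 615 genes and 10 or more for 15. Adgrl2, which encodes an adhesion G-protein-coupled receptor, had 16 in 1959 kb, followed by 1810013L24Rik and Jarid2 with 15 each and by Zfp608 with 14. Myc had 12 and Mycn 10, and of these 22 peaks 1, beside Mycn, had a composite, where 11.7% of all desert peaks had one. A nearest start does not say which gene a site acts on, and these genes were named for their counts after the values were seen.

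A list of 20 pluripotency genes had 9 members with desert sequence of their own, and 7 of these (77.8%) had a desert peak, 26 in all, beside 41% of all 3165 genes with desert sequence. This was 8.53 peaks per Mb of their 3.05 Mb, beside 3.55 per Mb over all genes. The densities were not matched for distance from a start, with which density falls, nor were those of the gene sets below. The shares of genes with a desert peak, here and below, were not matched for how much desert sequence a gene has. Pou5f1, Nanog and 9 others of the list had no sequence that far from a protein-coding start, so their absence from the deserts follows from the rule. Of the 26 peaks, 2 had a composite in the centre, 3 an octamer, 2 a SOX core and 20 none of the 3, where the shares over all desert peaks were 11.7%, 9.80%, 24.1% and 61.2%. The widths were 234 to 745 bp.

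Tbx3 had 8 of the 26, from 184.3 to 533.4 kb upstream, in the stretch shared with Med13l. The peak with the exact composite was the fourth of them from the upstream end, with another peak 5.49 kb away that held no composite. Over whole peaks, the one at 272.6 kb also had a composite, with 3 mismatches. Sox2 had 6 peaks, all downstream. Of these, 3 lay close together at 106.4, 107.7 and 111.0 kb (chr3:34756573-34757074, chr3:34757895-34758259 and chr3:34761174-34761624), on the side where the main distal ES cell enhancer of Sox2 is known to lie. The other 3 were at 136.9, 483.4 and 502.6 kb. None of the 6 had a composite with at most 3 mismatches, an octamer or a SOX core in its centre, and those at 107.7 and 136.9 kb had a match with 4 mismatches. In 2TS22C cells the endogenous gene is not the source of SOX2.

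Nr5a2 had 5 peaks from 213.7 to 513.0 kb upstream, and 3 of them formed a unit at 418.3, 427.3 and 430.1 kb whose first peak held the composite shown above. Tfcp2l1, which encodes a naive-state transcription factor, had peaks 102.2 and 148.8 kb downstream, the latter with an exact octamer. Klf5 had peaks 211.1 and 238.3 kb downstream and Klf4 had 1, 144.4 kb upstream, and these 3 Krüppel-like factor peaks had none of the 3 motifs. The peak at 238.3 kb was inside the lncRNA gene Gm41230.

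In a list of 20 lineage regulators, 12 had desert sequence and 6 (50%) had a desert peak, 18 in all (6.63 per Mb), beside 41% and 3.55 per Mb over all genes. Sox11, a neural SOX gene, had 7, Foxa2, an endoderm factor, had 4, Tfap2c, a trophectoderm factor, had 3 and Meis1 had 2. Sox17 and Eomes had 1 each. No composite was found in the 18, and 11.7% of all desert peaks had one. In a list of 20 signalling genes, 7 had desert sequence and 5 (71.4%) had peaks, 9 in all (8.10 per Mb), beside the same 41% and 3.55 per Mb. Of these peaks, 4 were beside the FGF receptor gene Fgfr2, 2 beside Id2 and 1 each beside Lifr, Spry2 and Axin2. A composite was in 1 of the 9 (11.1%), beside Fgfr2.

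Genes of developmental transcription factor families, taken by symbol, made up 98 of 3165 genes with desert sequence. Of the 98, 59 (60.2%) had a desert peak, against 1238 of the other 3067 (40.4%), and the density was 6.57 against 3.44 peaks per Mb. They accounted for 189 desert peaks (6.37%), with a composite in 10.6%, against 11.8% for the others. The most were beside Gata3 (10), Nr2f2 (9), Tbx3 (8), and Sall1, Sox11 and Sox9 (7 each). These are counts without a test, since the lists were chosen with results of these data known.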

How the data were processed

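The deposited file was an interval list with 3 columns, chromosome, start and end, and no score, ratio or count. Per the authors' methods, reads were aligned to mm10 with STAR (version 2.6.1c in the submitters' processing notes), duplicates were removed with Picard, and peaks were called with MACS2 2.1.1.20160309 and merged with BEDTools. Merging joins overlapping peaks, so widths can exceed those of single calls. The depth behind a peak is not given, and intervals cover counting error only.

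Peaks were placed on GENCODE M21 and on the RefSeq GRCm38.p6 sequence, where lower case marks repeats. A protein-coding start was that of a protein-coding transcript. The lncRNA genes included those listed as antisense or processed transcripts. Motifs were scanned on both strands of the central 200 bp, with AP-2, STAT, AP-1 and CTCF letters N free and overlaps allowed. Shares have 95% Wilson intervals. Odds ratios have 95% Woolf intervals, within GC strata of 5 percentage points Mantel-Haenszel estimates. Two-sided Fisher's exact tests were adjusted by Benjamini-Hochberg over 14 motifs or 32896 8-mers with a threshold of 0.05. Peaks near one another and paired flanking windows are not independent, so p-values are too small to that extent. The count of 8-mers and its test were checked on flanking windows, with known 8-mers planted in a part of them. Both parts came from the same windows, so calls that go with GC content were not checked. The 8-mers were not tested within GC strata. SciPy 1.17.1, NumPy 2.4.6 and statsmodels 0.14.6 were used.

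The members, motifs and gene lists were chosen with earlier results of these data known. Named items were all desert peaks of the pluripotency list, up to 5 genes of the other lists with most peaks (with ties, 6 lineage genes), the 5 farthest and 3 widest peaks, peaks with a composite of at most 1 mismatch, the 10 stretches with most peaks and 5 8-mers of largest ratio. A gene of the pluripotency list and a peak sequence that this rule names are not reported here, and the list's counts include that gene. BRG1 and H3K27ac libraries were not used here.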

Additional observations from a re-analysis of the deposited data

How the results depend on the processing

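Of 52 alternatives for 14 results, 40 kept the direction and the side of the threshold or stayed within 1.5 times a count. The number of desert peaks moved to 4582 with a limit of 50 kb and to 1596 with 200 kb. It ranged from 2433 to 4010 under the other limits on repeats and starts, with 2831 when every transcript of protein-coding genes was used, an alternative chosen after seeing the data. Against flanking windows, every alternative run for the composite (odds ratios 5.56 to 24.3), the octamer (5.52 to 10.3) and the SOX core (3.02 to 4.18) kept the call. Against intergenic peaks near genes, the composite call (odds ratio 1.22) was lost within GC strata (1.12, chi-square test, adjusted p = 0.232) and with at most 2 mismatches (1.35, exact test, adjusted p = 0.0945). The call was kept in the other 6, from 1.24 to 2.91, none of which used GC strata. Against distal intronic peaks it was gained with at most 4 mismatches (1.19), in whole peaks (1.23), over 200 kb (1.34), without X and Y (1.18) and with at most 1 mismatch (2.39, chosen after seeing the data). It was not gained within GC strata (1.08, chi-square test, adjusted p = 0.462) or with at most 2 mismatches (1.4, exact test, adjusted p = 0.0554). A weight matrix learned outside deserts on odd-numbered chromosomes and applied to even-numbered ones gave 24.3, 1.37 and 1.19 against flanks, peaks near genes and intronic peaks. Against intronic peaks the weight matrix did not gain the call. The comparison of widths, which passed in no setting, reversed at a limit of 500 bp (0.914). The 8-mers called against peaks near genes went from 2 higher and 3 lower to 0 and 0 for desert peaks over 200 kb, where fewer peaks were tested. The ratio of densities (2.66) was 2.55 over unmasked bases and 2.58 without X and Y. The cause of a change was not tested. No paired analysis was possible because the merged list has no library columns, and leaving out a replicate could not be run for the same reason.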
